A study of Mus musculus with 4 samples.

Results

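The genes described here are 39 autophagy and lysosome genes, a list written by name and kept where the count table held at least 1 read; all 39 qualified, out of 23282 genes in the table. They were measured in nascent, chromatin-bound RNA of C2C12 myotubes, the fused muscle cells formed by a mouse myoblast line that the labels give as female. All cultures had been deprived of steroids. The 2 vehicle libraries are compared with 2 libraries from cells given 1 µM dexamethasone, a synthetic glucocorticoid, and both groups were taken after 2 h. No label ties a library to its own culture, so p-values measure only the spread between these libraries, which may be technical, and every library comes from the same cell line.

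Autophagy encloses cytoplasm in a double membrane and delivers it to the lysosome for breakdown. The ULK kinase complex starts the process, a class III phosphatidylinositol 3-kinase complex marks the membrane with PI3P, and a pair of ubiquitin-like conjugation systems couples ATG8 proteins (the LC3 and GABARAP families) to it. Cargo receptors tie substrates to ATG8, and cathepsins degrade them once the vesicle fuses with a lysosome. In skeletal muscle the pathway is known for removing protein and mitochondria during wasting, and FoxO factors and the MiT/TFE family, with TFEB as its best known member, are known regulators of its genes.

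Total counts were 19631435 for vehicle 1, 35116830 for vehicle 2, 32463331 for dexamethasone 1 and 88596296 for dexamethasone 2, so the deepest library gives the most precise values. Values are CPM, counts relative to the library total, with the total scaled by TMM (scaled CPM), and a log2 fold change is dexamethasone over vehicle. All 10 myotube markers had counts in every library, but their sum was 128500 and 123800 scaled CPM in vehicle 1 and dexamethasone 1 against 45610 and 44690 in vehicle 2 and dexamethasone 2. Most of that sum was Ttn, the gene of the giant sarcomere protein titin, at 118100 and 113400 against 41070 and 39940, while the fusion gene Mymk was close to equal between replicate numbers (176 and 208.3 against 173 and 207.9) and Mymx was lower in replicate 1 (8.91 and 9.88 against 11.6 and 15.6). Markers of undifferentiated or cycling myoblasts summed to 59.25 and 63.25 after vehicle and 45.37 and 53.05 after dexamethasone, and those of fibroblasts to 35.7 and 56.6 against 32.97 and 32.1 (Lum and Thy1 listed at 0), so neither sum overlapped between groups. Single markers went both ways. Of the myoblast markers only Pax7 was lower, with a log2 fold change of -0.80. It stood at 31.97 and 39.03 scaled CPM with vehicle and 17.95 and 22.87 with dexamethasone, a large part of that sum. The other myoblast markers had values from 0.07 (Mki67) to 0.47 (Bub1). Fibroblast markers had -0.98 for Col1a1, -0.51 for Dcn and 1.04 for Pdgfra. The part of such cells in the results was not tested. Macrophage markers summed to 2.45 to 3.90, mostly Itgam, with 446 counts over the 4 libraries. Ptprc, Adgre1, Csf1r and Cd14 had 2, 5, 17 and 36. The treatment itself was visible in Fkbp5, a co-chaperone gene and established glucocorticoid target, with 400 and 819 counts (21.5 and 21.6 scaled CPM) after vehicle against 30537 and 65051 (1019 and 697) after dexamethasone, a log2 fold change of 5.32 (SE 0.263, edgeR adjusted p 0.0429; limma-voom adjusted p 0.0598). The receptor gene Nr3c1 had 4434 and 6838 counts against 3640 and 7821 (238 and 180.2 against 121 and 83.8 scaled CPM), a log2 fold change of -1.03 (SE 0.251, edgeR adjusted p 0.430; DESeq2 adjusted p 0.017; likelihood ratio test adjusted p 0.0272).

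None of the 39 autophagy and lysosome genes passed the test. In edgeR's quasi-likelihood test over 13285 genes, 0 of 39 were higher and 0 lower at a Benjamini-Hochberg adjusted p under 0.05, where 0.0376% of all genes tested were called higher and 0% lower. With an unadjusted p below 0.05 as the rule the count was again 0 of 39, where 5.78% of all genes passed. Neither DESeq2 nor limma-voom called any of the 39, nor did the likelihood ratio test of edgeR or any of the 4 fits that left out one library. None of these fits has a term for the replicate number, and the labels do not say what that number marks. A fit that adds it, on 1 residual degree of freedom, called Bnip3, Ctsd and Ctsl higher and none of the 39 lower. It called 12.7% of all genes, a share that takes both directions together. That fit is described with the processing, with its calls over all genes counted by direction. The median log2 fold change of the 39 was 0.04, beside -0.0016 over all genes tested. All values other than that of Bnip3 lay between -0.25 and 0.26. In 7 of the 39 (17.9%) the 2 dexamethasone values exceeded the 2 vehicle values, beside 15% of all genes. In 2 (5.13%) they were lower, beside 12.9% of all genes. The 39 genes were chosen with earlier results of these data known, so these shares and the median are descriptions only.

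**Figure D1:**
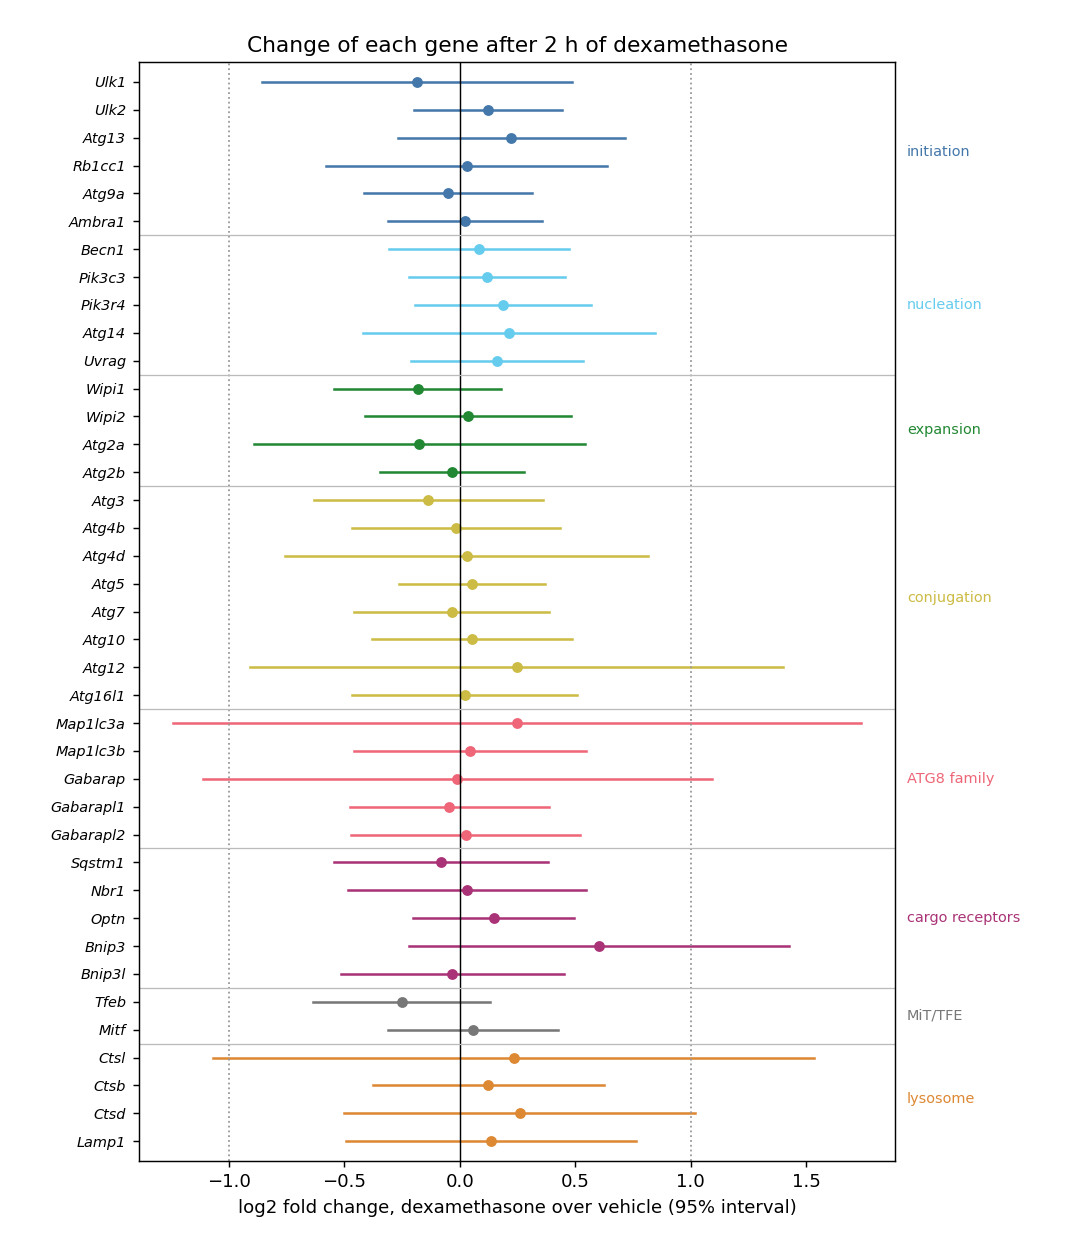
Log2 fold change of each of the 39 genes (points) with its 95% interval (lines), dexamethasone over vehicle, grouped by role; dotted lines mark a 2-fold change in either direction. Every interval crosses 0, and Bnip3 has the largest value, at 0.60.

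How large a change the main fit leaves room for differs between genes. That fit has no term for the replicate number, so the difference between numbers 1 and 2 counts as spread in its intervals. The 95% interval of the log2 fold change, from the fit's standard error and 4.56 degrees of freedom, lay within a 2-fold change in either direction for 33 of the 39 genes and within 1.5-fold for 23. It reached past 2-fold for Atg12, Map1lc3a, Gabarap, Bnip3, Ctsl and Ctsd. In these genes the replicate 1 minus replicate 2 difference was 0.88, 1.12, 0.80, -0.57, 1.03 and 0.56 in log2 CPM, in that order. Standard errors ran from 0.118 for Atg2b to 0.563 for Map1lc3a. In bulk RNA, fewer cells of a type and less RNA per cell cannot be told apart.

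The level of these genes was first set on a common scale. Per kb of gene body (start to end in GENCODE M21), the mean over the 4 libraries ran from 0.374 scaled CPM per kb for Tfeb to 10.2 for Sqstm1, a 27.3-fold range, with a median of 1.77. Per kb of exon the range was wider, 72.2-fold, from 1.42 for Atg4d to 102 for Atg10. The scale decides the order: Atg10, which encodes the conjugating enzyme for ATG12 and spans 288.6 kb, was highest per kb of exon and among the lowest per kb of gene body (0.608). Whether introns were counted is not given in the sources used here. Across the 39 genes the mean scaled CPM, not divided by length, had a Spearman's rho of 0.667 with gene body length and 0.346 with exon length, as a description over genes that share the 4 libraries (0.457 and 0.486 over all genes tested with a length). On the gene body scale the 4 highest were the cargo receptor Sqstm1 and the lysosomal genes Ctsd (6.88), Ctsl (5.97) and Lamp1 (5.63), and the 4 lowest were Tfeb, Atg7 (0.499), Bnip3 (0.579) and Atg10.

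**Figure D2:**
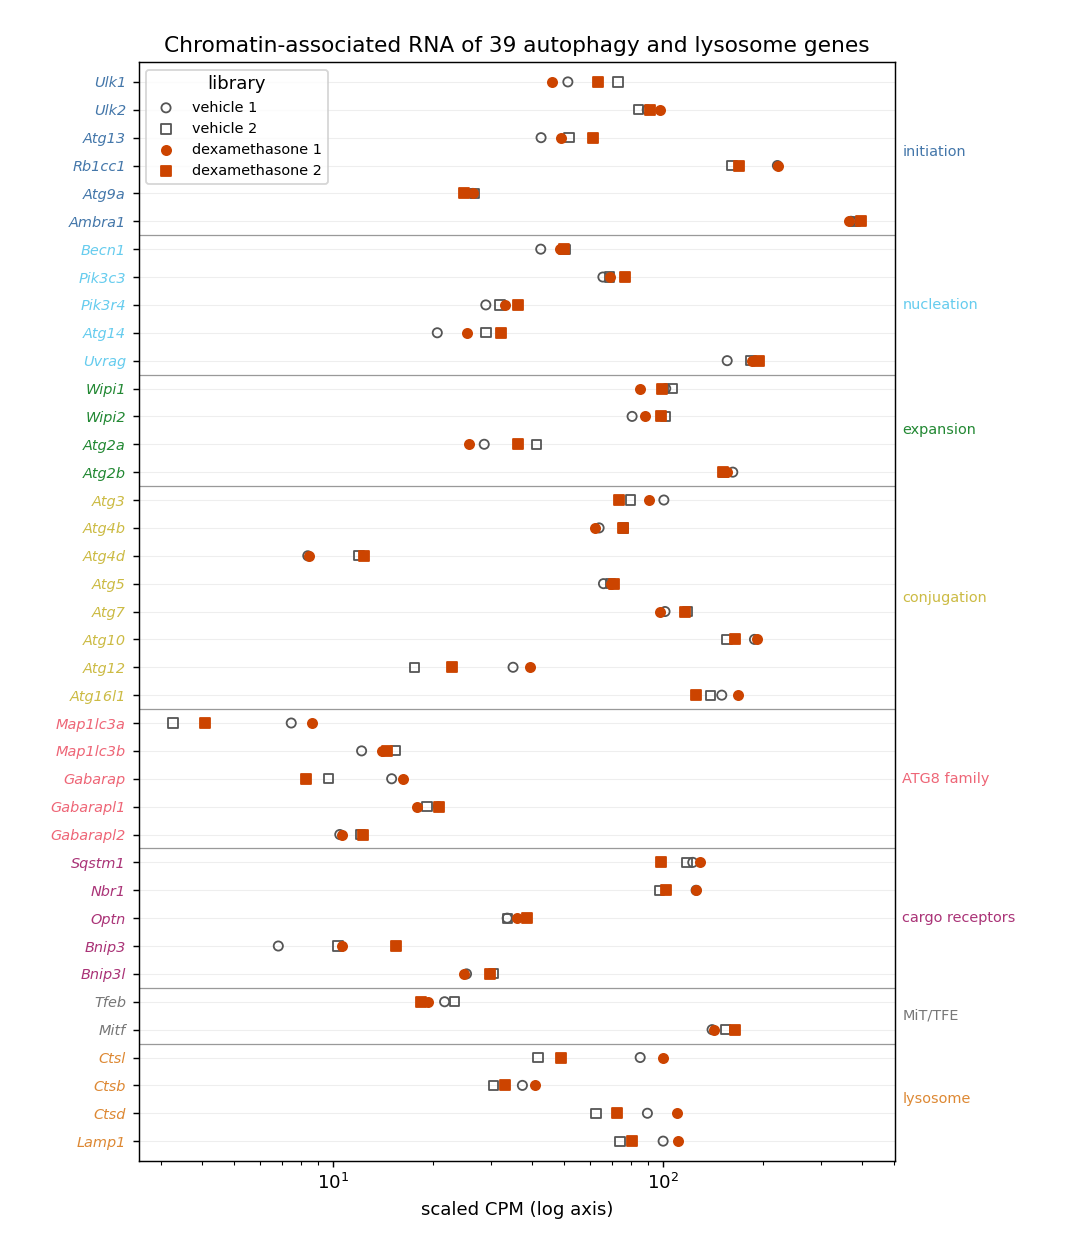
Scaled CPM (log axis) of the 39 genes in each library; open symbols are vehicle, filled symbols dexamethasone, circles replicate 1 and squares replicate 2, with horizontal lines between roles. In Map1lc3a, Atg12, Ctsl, Ctsd and Lamp1 the circles sit together above the squares, whatever the treatment.

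Among the 6 genes of initiation, Ulk1 encodes the kinase that starts autophagosome formation. Its scaled CPM was 51.3 and 72.8 in vehicle 1 and 2 and 46.1 and 63.2 in dexamethasone 1 and 2. The groups overlapped, and each replicate 2 library exceeded both replicate 1 libraries. The log2 fold change was -0.18, with an interval of -0.86 to 0.49. Ulk2, the related kinase, had 89.3 and 84.1 with vehicle and 97.5 and 91.2 with dexamethasone. Here both dexamethasone libraries were the higher ones, by 0.12 on the log2 scale (interval -0.20 to 0.44, edgeR unadjusted p 0.365). Ulk1 made up 36.5% and 46.4% of the counts of the pair with vehicle and 32.1% and 40.9% with dexamethasone, so this share overlapped between groups as well. The other genes of this step were Atg13 and Rb1cc1 (FIP200), partners of the ULK kinases, the lipid scramblase gene Atg9a and the scaffold gene Ambra1, with log2 fold changes of 0.22, 0.03, -0.05 and 0.02. Ambra1 had the most counts of all 39, at 365 to 397 scaled CPM.

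The 5 genes of the class III PI3-kinase complexes all had values above 0, from 0.08 to 0.21, and their groups did not overlap in 3, each with dexamethasone above, which 15% of all genes tested also show. Pik3c3 encodes the catalytic subunit Vps34, which makes PI3P, and had 65.6 and 68.5 scaled CPM with vehicle and 69.1 and 76.4 with dexamethasone. Pik3r4 encodes its partner Vps15 and had 29.0 and 32.0 against 33.2 and 36.2. Uvrag, which directs the complex toward maturation and endosomes, had 156 and 184 against 185 and 195. In each of these 3 genes the 2 dexamethasone libraries were highest, but vehicle 2 and dexamethasone 1 lay close together, most of all in Pik3c3 and Uvrag. Their log2 fold changes were 0.12, 0.19 and 0.16, with edgeR unadjusted p of 0.402, 0.251 and 0.311. Becn1 (Beclin 1), the scaffold of the complex, and Atg14, which brings it to autophagosome sites, had log2 fold changes of 0.08 and 0.21 with overlapping groups. Becn1 shares most of its gene body with Cntd1 on the opposite strand, which had 5 to 29 counts in a library.

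Of the 4 genes for PI3P effectors and lipid transfer, 3 had values below 0. Wipi1, a PI3P-binding protein of the early autophagosome, had 102 and 107 scaled CPM with vehicle and 84.8 and 98.7 with dexamethasone. Both dexamethasone libraries were lower, with a log2 fold change of -0.18 (interval -0.54 to 0.18, edgeR unadjusted p 0.245). Its relative Wipi2, which recruits the conjugation machinery, had 80.4 and 102 against 88.1 and 98.6 (log2 fold change 0.04). Atg2a and Atg2b encode lipid transfer proteins that feed the growing membrane, with log2 fold changes of -0.17 and -0.03.

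The 8 conjugation genes had a median absolute log2 fold change of 0.04, the same as the ATG8 genes. Atg5, whose product is joined to ATG12, had 65.8 and 69.2 scaled CPM with vehicle and 69.2 and 70.8 with dexamethasone, a log2 fold change of 0.05. Its dexamethasone values were above both vehicle values by a margin smaller than the spread within vehicle. Atg7, the E1-like enzyme that activates ATG12 and ATG8 proteins, stood at 101 and 119 against 97.8 and 117 (log2 fold change -0.03), and Atg3, the E2-like enzyme of ATG8 proteins, at 100.3 and 79.3 against 90.2 and 73.4 (-0.13). The ATG8 proteases Atg4b and Atg4d had values of -0.02 and 0.03, though each shares part of its gene body with a neighbour on the opposite strand (Thap4 and Kri1). Atg10 and Atg16l1, the latter encoding the partner that places the ATG12–ATG5 conjugate on membranes, had 0.05 and 0.02. Atg12 was the exception in its spread. It had 35.0 and 17.6 with vehicle against 39.3 and 23.0 with dexamethasone, so both replicate 1 libraries exceeded both replicate 2 libraries. Its log2 fold change of 0.25 had an interval of -0.91 to 1.4002.

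The 5 ATG8 genes encode the proteins that mark the autophagosome membrane and bind cargo receptors, and none had groups that did not overlap. Map1lc3a (LC3A) was counted 139, 124, 258 and 381 times, in the order vehicle 1, vehicle 2, dexamethasone 1, dexamethasone 2, which is 7.46, 3.27, 8.61 and 4.08 scaled CPM. Map1lc3b (LC3B), the form most used as an autophagy marker, had 227, 586, 420 and 1355 counts, or 12.2, 15.4, 14.0 and 14.5 scaled CPM. For Gabarap the counts were 280, 367, 488 and 772, or 15.02, 9.67, 16.3 and 8.27 scaled CPM. Map1lc3a and Gabarap were higher in replicate 1 of both groups, whereas Map1lc3b was higher in replicate 2. Gabarapl1, a GABARAP relative studied as a FoxO target in muscle, had 388, 729, 536 and 1947 counts, or 20.8, 19.2, 17.9 and 20.9 scaled CPM. Gabarapl2 (GATE-16) had 195, 458, 318 and 1151 counts, or 10.5, 12.1, 10.6 and 12.3 scaled CPM. In both genes the groups overlapped, with the 4 libraries of Gabarapl1 between 17.9 and 20.9.

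In figures of change, the edgeR log2 fold change was 0.25 (SE 0.563) for Map1lc3a, 0.04 (SE 0.189) for Map1lc3b, -0.01 (SE 0.416) for Gabarap, -0.05 (SE 0.163) for Gabarapl1 and 0.03 (SE 0.188) for Gabarapl2, with unadjusted p from 0.679 to 0.982. The interval of Gabarapl1 was -0.48 to 0.39. As a family the 5 summed to 65.9 and 59.7 scaled CPM with vehicle and 67.3 and 60.3 with dexamethasone. The make-up of this sum differed by replicate number: Gabarap took 22.8% and 24.2% of the family's counts in vehicle 1 and dexamethasone 1 against 16.2% and 13.8% in vehicle 2 and dexamethasone 2. Map1lc3b took 18.5% and 20.8% in the replicate 1 libraries against 25.9% and 24.2% in the replicate 2 libraries.

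Bnip3 had the largest value of the 39 genes. It encodes a receptor on the outer mitochondrial membrane that hands mitochondria to autophagosomes. Its counts were 127 and 392 after vehicle and 319 and 1443 after dexamethasone (numbers 1 and 2), which is 6.81, 10.3, 10.6 and 15.5 scaled CPM. Both dexamethasone libraries were above both vehicle libraries, but vehicle 2 and dexamethasone 1 almost met. The group values were 8.57 ± 2.49 (SD, n = 2) against 13.1 ± 3.40 (SD, n = 2), so the difference between the means exceeded the SD of either group. The log2 fold change was 0.60 (SE 0.311, interval -0.22 to 1.43), with an edgeR unadjusted p of 0.116 and an adjusted p of 0.9999. Compared within a replicate number, dexamethasone over vehicle was 0.64 on the log2 scale for number 1 and 0.58 for number 2. Leaving out each library in turn gave 0.95 at the highest, when vehicle 2 was dropped, and 0.30 at the lowest, when dexamethasone 2 was. Such a fit leaves 1 library in a group, so the difference between replicate numbers (-0.57 for 1 minus 2) enters its value.

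The other cargo receptor genes stayed nearer to 0. Bnip3l (NIX), the close relative of Bnip3 and also a mitochondrial receptor, had 25.3 and 30.6 scaled CPM with vehicle and 24.9 and 29.8 with dexamethasone, a log2 fold change of -0.03 (interval -0.51 to 0.45). Optn (optineurin), a receptor for ubiquitinated cargo, had 33.6 in each vehicle library and 36.0 and 38.5 with dexamethasone, a log2 fold change of 0.15 (edgeR unadjusted p 0.317). Sqstm1 (p62), the receptor and signalling scaffold, had 123 and 118 against 129 and 98.0, with the dexamethasone libraries at either end of the range. Nbr1, a related receptor, had 126 and 97.2 against 126 and 102. The log2 fold changes were -0.08 and 0.03. The difference between Bnip3 and Bnip3l was not tested.

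Tfeb and Mitf encode MiT/TFE transcription factors, which bind lysosomal and autophagy promoters. Tfeb had 21.7 and 23.3 scaled CPM with vehicle and 19.4 and 18.5 with dexamethasone. Both dexamethasone libraries were lower, and at -0.25 (SE 0.145, interval -0.63 to 0.13, edgeR unadjusted p 0.150) this was the lowest log2 fold change of the 39. Mitf had 140.4 and 154 against 143 and 164, with overlapping groups and a log2 fold change of 0.06.

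The letters TCACGTGA, the core of the CLEAR element that TFEB is known to bind, were searched for in RefSeq promoter windows (GRCm38.p6, 250 bases before to 50 after each start; the count table was made on another build, mm9). The motif is its own reverse complement, and it contains the E-box CACGTG. Of the 39 genes 31 had a window, and 2 of these held the core (6.45%), as did 10 of 87 other pathway genes described further on (11.5%) and 1.12% of all 27025 genes with a window. Shown are the 2 among the 39 and Mcoln1, the gene of a lysosomal calcium channel, with the core in capitals, 5′ to 3′ on the gene's strand.

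Ctsd, chr7:142387903-142387942, minus strand: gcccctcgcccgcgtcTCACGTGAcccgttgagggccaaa
Atg3, chr16:45158741-45158780, plus strand: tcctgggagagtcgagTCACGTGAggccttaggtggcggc
Mcoln1, chr8:3500457-3500496, plus strand: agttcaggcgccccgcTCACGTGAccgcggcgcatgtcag

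In Ctsd the core begins 99 bases before the start site, in Atg3 72 bases and in Mcoln1 46 bases before it. All 12 genes with the core were tested, and their log2 fold changes ran from -0.24 in Cln3 to 0.335 in Gla, with a median of -0.01. None had an unadjusted p under 0.05. The E-box letters alone stood in 8 of the 31 genes (25.8%, with 8.09% of all genes): Atg14, Atg3, Atg5, Atg7, Bnip3, Ctsl, Ctsd and Lamp1. Neither the FoxO letters GTAAACA (4.05% of all genes) nor the glucocorticoid response element GNACANNNTGTNC (0.537%), each searched on both strands, were found in the 31 windows. A match is a description of letters and not of binding.

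The 4 lysosomal genes encode the proteases cathepsin L, B and D and the membrane glycoprotein LAMP1. Ctsl had 85.0 and 41.7 scaled CPM with vehicle and 99.95 and 49.1 with dexamethasone. Ctsd had 89.4 and 62.5 against 109.7 and 72.2, Ctsb 37.4 and 30.6 against 40.9 and 33.2, and Lamp1 99.8 and 73.9 against 110.5 and 80.4. In all 4 genes each replicate 1 library exceeded each replicate 2 library, and within a replicate number dexamethasone was above vehicle. The edgeR log2 fold changes were 0.23 for Ctsl, 0.26 for Ctsd, 0.12 for Ctsb and 0.14 for Lamp1, and the lowest unadjusted p was 0.410. Within replicate number 1 the dexamethasone library stood above the vehicle library by 0.13 to 0.29 on the log2 scale in these 4 genes, and within number 2 by 0.12 to 0.23. Without vehicle replicate 1 Ctsl was 0.84 and Ctsd 0.54, and without dexamethasone replicate 1 they were -0.36 and -0.07. Such a fit leaves 1 library in a group, so the replicate 1 minus replicate 2 difference enters its value. That difference was 1.03 for Ctsl and 0.56 for Ctsd in log2 CPM, so these values do not measure how steady the treatment difference is. Lamp1 shares part of its gene body with Grtp1 on the opposite strand, which had 2853 to 18494 counts, and the strand setting of the counting is not given in the sources used here. Ctsb, Sqstm1, Atg2b, Gabarapl1, Map1lc3b and Atg9a overlap an opposite-strand neighbour by 46 to 774 bases, so their values carry the same uncertainty.

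In most of these genes the replicate number separated the libraries more than treatment did, as in most genes tested. Taking the mean over the groups, the replicate 1 minus replicate 2 difference in log2 CPM was larger in size than the treatment difference in 29 of the 39 genes (74.4%, with 68.0% of all genes tested). Its median size was 0.25 in the 39 genes, against 0.08 for the log2 fold change. It was 1.12 for Map1lc3a, 1.03 for Ctsl, 0.88 for Atg12, 0.80 for Gabarap and 0.56 for Ctsd. At the other end were Bnip3 (-0.57), Atg4d (-0.53), Atg2a (-0.51), Ulk1 (-0.48) and Atg14 (-0.42).

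The same difference was seen in each group. Across the 39 genes, the difference in vehicle and that in dexamethasone had a Pearson's r of 0.942 and a Spearman's rho of 0.889, as a description over genes that share the 4 libraries (r = 0.734 over all genes tested). Replicate 1 was higher in both groups for 15 of the 39 genes and lower in both for 20. Over all 13285 genes tested these counts were 5354 and 5594. The lysosomal genes were all among the 15, and the 5 PI3-kinase complex genes were all among the 20. The summed myotube markers, mostly Ttn, were also higher in both replicate 1 libraries, though Mymk was close to equal and Mymx lower, and their part in these differences was not tested.

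**Figure D3:**
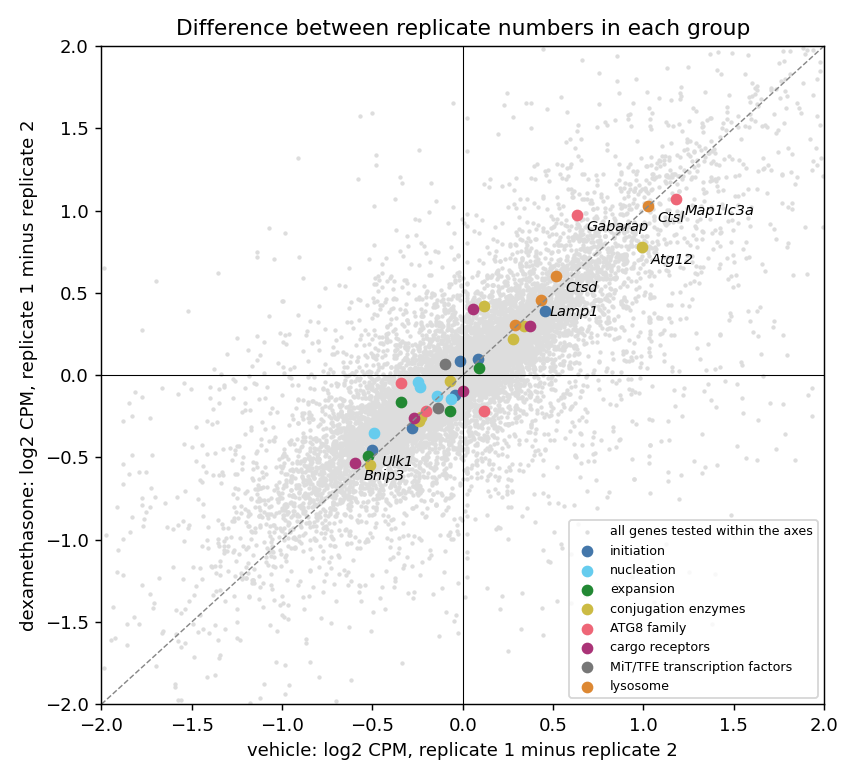
Replicate 1 minus replicate 2 in log2 CPM, in vehicle (x axis) and in dexamethasone (y axis); coloured points are the 39 genes by role, grey points are all genes tested within the axes, and the dashed line marks equality. The 39 genes follow the line (r = 0.942), from Bnip3 at the lower left to Map1lc3a at the upper right.

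Lists for the rest of the pathway were chosen with earlier results of these data known, so shares in them are descriptions only. These lists hold 111 further genes of autophagy and the lysosome. Of these 99 were tested: 0 were called higher and 0 lower by edgeR at an adjusted p under 0.05, and 7 (7.07%) had an unadjusted p under 0.05, with 5.78% of all genes tested, all 7 with values above 0. The median log2 fold change of the 99 was 0.04. Both dexamethasone libraries were above both vehicle libraries in 22 (22.2%, with 15% of all genes) and below in 8 (8.08%, with 12.9% of all genes). DESeq2's Wald test and edgeR's likelihood ratio test each called 3 of the 99 higher, namely Foxo3, Rubcnl and Npc2, where they called 1.81% and 1.83% of all genes higher.

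Foxo3, the FoxO factor best known for driving autophagy genes in muscle, had 3762 and 9261 counts with vehicle and 19720 and 55259 with dexamethasone. In scaled CPM that is 202 and 244 against 658 and 592, with a log2 fold change of 1.49 (SE 0.162, edgeR adjusted p 0.123; DESeq2 adjusted p 3.54e-09). Rubcnl, whose product Pacer is a Rubicon relative that works with UVRAG in autophagosome maturation, had 139 and 236 counts against 578 and 2077 (7.46 and 6.22 against 19.3 and 22.2 scaled CPM), a log2 fold change of 1.61 (SE 0.193, edgeR adjusted p 0.126; DESeq2 1.23e-06). Npc2, the soluble lysosomal protein that carries cholesterol out of the lumen, had 475 and 985 counts against 1905 and 5067 (25.5 and 25.96 against 63.55 and 54.3 scaled CPM), a log2 fold change of 1.19 (SE 0.148, edgeR adjusted p 0.134; DESeq2 1.87e-05). In these 3 genes the groups did not overlap, and their intervals were 1.06 to 1.92, 1.097 to 2.12 and 0.80 to 1.59. With each library left out in turn, the log2 fold change of Foxo3 ran from 1.357 to 1.6377. Such a fit leaves 1 library in a group, so the difference between replicate numbers enters its value.

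A further 4 genes met the same rule with smaller changes or wider spread. Sesn1 (sestrin 1), a stress protein that restrains mTORC1, had 209 and 161 scaled CPM with vehicle and 385 and 279 with dexamethasone, a log2 fold change of 0.85 (SE 0.231, edgeR adjusted p 0.513). Depp1, a known FoxO target, had 6.71 and 3.80 against 16.4 and 8.71, a log2 fold change of 1.27 with a wide SE of 0.447 (adjusted p 0.795). Its whole gene body lies within Rassf4 on the opposite strand, which had 66 to 418 counts. Psap, the precursor of the saposins that activate lysosomal lipid hydrolases, had 90.7 and 103 against 127 and 128 (log2 fold change 0.40, adjusted p 0.714). Ctso, a lysosomal cysteine protease gene, had 8.05 and 7.88 against 10.9 and 11.2 (0.48, adjusted p 0.788). Compared within replicate numbers 1 and 2, dexamethasone over vehicle was 0.88 and 0.80 on the log2 scale for Sesn1 and 1.29 and 1.19 for Depp1. For Psap these values were 0.49 and 0.31, and for Ctso 0.44 and 0.51. Of the 87 other pathway genes with a promoter window, Sesn1 alone held the FoxO letters (1.15%, with 4.05% of all genes). Stx17 alone held the glucocorticoid response element (1.15%, with 0.537% of all genes), and its log2 fold change was 0.05. The Sesn1 letters are given on the opposite-strand reading of the motif in capitals, 23 bases after a start site.

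Sesn1, chr10:41810580-41810618, plus strand: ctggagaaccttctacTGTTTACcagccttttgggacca

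By function, the 14 tested V-ATPase genes, which acidify the lysosome, had log2 fold changes of -0.16 to 0.17 and a summed level of 891 and 908 scaled CPM with vehicle and 881 and 899.9 with dexamethasone. The 12 genes of vesicle fusion ran from -0.18 to 0.22, and the 9 other receptors from -0.27 to 0.22. The 26 lysosomal hydrolases had a median of 0.04, between -0.24 and 0.48. The 14 lysosomal membrane and lipid-handling proteins, a list that holds the soluble proteins Npc2 and Psap, had a median of 0.03. In 6 of these 14 genes the groups did not overlap, all with dexamethasone above, beside 15% of all genes tested. The 10 other regulators ran from -0.35 for Sesn2 to 1.49 for Foxo3, with a median of 0.34, and the 14 other core genes from -0.295 to 1.61 for Rubcnl, with a median of 0.11.

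**Figure D4:**
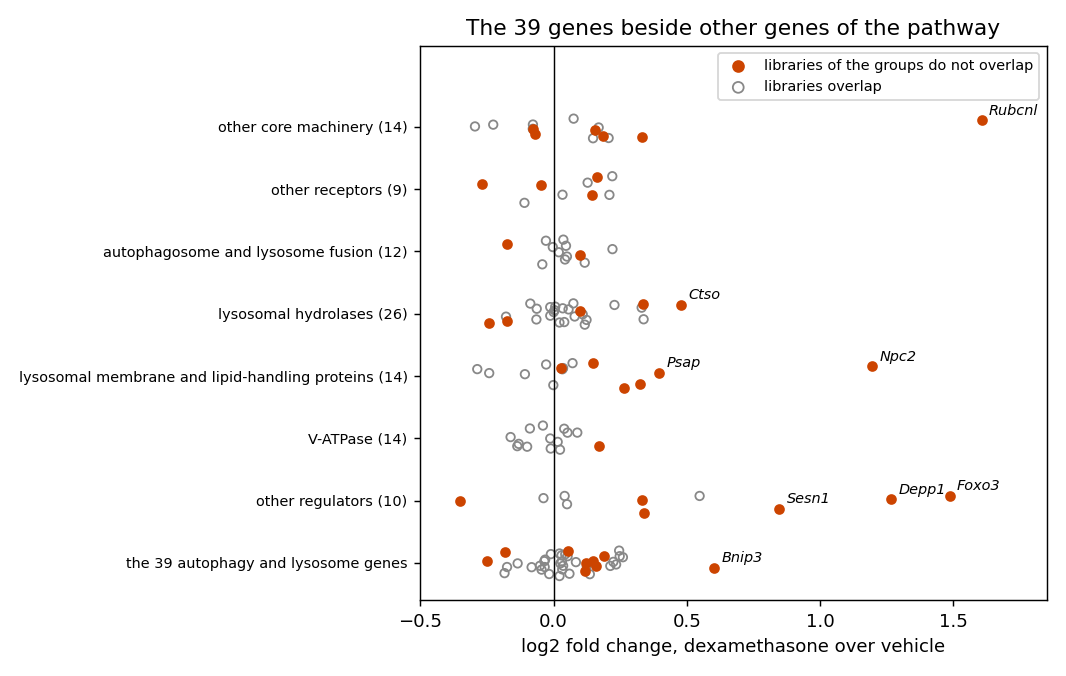
Log2 fold change (x axis) of each tested gene by functional list, with the number tested in brackets; filled points are genes whose vehicle and dexamethasone libraries do not overlap, and points are spread vertically for legibility. Named are the 7 other pathway genes with an unadjusted p under 0.05, and Bnip3 among the 39; the 39 genes gather near 0 while Foxo3, Rubcnl, Depp1 and Npc2 stand above 1.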

How the data were processed

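Raw read counts per gene for all 4 libraries were deposited by the authors in one table. The submitters' processing notes name TopHat2 2.0.13, SAMtools 1.1, HTSeq 0.6.1, DESeq2 1.18.1 and build mm9, without roles; annotation and strand setting are not given in the sources used here. Per the labels' protocols, RNA was purified from washed chromatin pellets; they name both a stranded total RNA kit and a stranded mRNA kit, so poly(A) selection is unclear. Columns were matched to samples by name. Of 23333 rows, 51 repeats were used once.

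Genes were filtered with filterByExpr (minimum count 10, minimum total 15) and tested with edgeR 4.0.16 (R 4.3.3, TMM, quasi-likelihood, group as only term, two-sided), with Benjamini-Hochberg adjustment over all 13285 genes tested and a threshold of 0.05. Scaled CPM uses TMM; log2 CPM differences have a prior count of 2. Intervals are 95%, unadjusted, on 4.56 degrees of freedom. Lengths came from GENCODE M21 by Ensembl identifier.

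Described in full were the ATG8 family, members with an unadjusted p under 0.05 or with groups that do not overlap and a log2 fold change of at least 0.5 in size, and other pathway genes with an unadjusted p under 0.05 and groups that do not overlap. The members and lists were chosen with earlier results of these data known. Few reads can limit precision, but the SE did not follow counts alone. The difference between replicate numbers, for which the main fit has no term, also enters it. Map1lc3a (124 to 381 counts) had an SE of 0.563 and a replicate 1 minus replicate 2 difference of 1.12 in log2 CPM. Ctsl, with 1582 to 4581 counts, had an SE of 0.491 and a difference of 1.03. Gabarapl2, with 195 to 1151 counts, had 0.188 and -0.21. Totals ran from 19631435 to 88596296. Alternatives were other scalings (DESeq2 size factors, upper quartile, library size), filters, thresholds of 0.1 and 0.01, DESeq2 1.42.0, limma-voom (limma 3.58.1), the likelihood ratio test, replicate number as a block with and without a length correction (loess span 0.3), and leaving out each library. Tests were checked on simulated counts that held no difference between replicate numbers. The check therefore does not cover the difference seen between numbers 1 and 2 in these libraries.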

Additional observations from a re-analysis of the deposited data

How the results depend on the processing

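No alternative without a block called any of the 39 genes. Genes called higher and lower over the whole table, 5 and 0 in the main test, were 236 and 53 with DESeq2's Wald test and 243 and 45 with edgeR's likelihood ratio test (3 other pathway genes each), 23 and 0 with every gene that had a count, 0 and 0 with limma-voom, and 0 and 0 at an adjusted p under 0.01; the cause was not tested. Fkbp5 did not pass in limma-voom. The labels do not say what the replicate number marks, and 2 pairs cannot establish pairing; the gap between numbers 1 and 2 was alike in both groups across genes (r = 0.734). Adding the replicate number as a block, on 1 residual degree of freedom, 913 genes were higher and 768 lower (12.7% of genes), 3 of the 39 among them, all higher: Bnip3 (log2 fold change 0.60, adjusted p 0.00791), Ctsd (0.25, 0.0426) and Ctsl (0.23, 0.0496). The block called 14 other pathway genes, 11 higher (Foxo3, Sesn1, Npc2, Rubcnl, Depp1, Trp53inp1, Vmp1, Psap, Ctso, Trp53inp2, Foxo1) and 3 lower (Sesn2, Sh3glb1, Retreg1), among them Sesn1 (adjusted p 0.00034), Depp1 (0.000752), Psap (0.0115) and Ctso (0.0214), and also Nr3c1 (0.000235). With a length correction added, 905 were higher and 963 lower (14.1%), with 2 of the 39 (Bnip3, 0.0050, and Ctsd, 0.0438) and 15 other pathway genes, and Atg16l1 turned to -0.0161. The median of the 39 was 0.0086 under upper quartile scaling and -0.0040 under library size only. Under upper quartile scaling Ambra1 (-0.0051), Atg16l1 (-0.0056) and Gabarapl2 (-0.0016) turned sign. Under library size only Rb1cc1 (-0.0068), Ambra1 (-0.0135), Wipi2 (-0.0079), Atg4d (-0.0052), Atg16l1 (-0.0263), Map1lc3b (-0.0030), Gabarapl2 (-0.0123) and Nbr1 (-0.0040) did, and Gabarap (0.0051) with every gene that had a count. Of the other tests of the 39 genes, 372 kept direction and side and 5 became stronger, all under the block. In the fits that leave out a library, 1 group holds a single replicate number, so the difference between numbers enters each value. Leaving out each library, which leaves a lone sample assumed to vary like the others, called 4 to 84 genes higher, 0 to 109 lower (both highest without vehicle replicate 2, with 24 and 28 higher without dexamethasone replicate 1 and 2), 0 of the 39 and 0 to 1 other pathway genes, with a median of 0.0185 to 0.0864; the sign held in 11 of the 39 genes and changed in 28: Ulk1 -0.4317 to 0.0995, Rb1cc1 -0.1741 to 0.2764, Ambra1 -0.0399 to 0.0865, Becn1 -0.0324 to 0.2205, Atg14 -0.0078 to 0.4898, Wipi2 -0.1228 to 0.2243, Atg2a -0.4442 to 0.1232, Atg2b -0.0706 to 0.0128, Atg3 -0.2881 to 0.0443, Atg4b -0.1653 to 0.1218, Atg4d -0.2745 to 0.3258, Atg7 -0.1684 to 0.0925, Atg10 -0.0720 to 0.1977, Atg12 -0.1840 to 0.8225, Atg16l1 -0.1976 to 0.2177, Map1lc3a -0.3719 to 0.9446, Map1lc3b -0.1137 to 0.2359, Gabarap -0.5660 to 0.4048, Gabarapl1 -0.1621 to 0.0658, Gabarapl2 -0.0894 to 0.1423, Sqstm1 -0.2893 to 0.1034, Nbr1 -0.1347 to 0.2297, Bnip3l -0.1702 to 0.1208, Mitf -0.0465 to 0.1627, Ctsl -0.3583 to 0.8361, Ctsb -0.0271 to 0.2751, Ctsd -0.0654 to 0.5415, Lamp1 -0.1044 to 0.3685.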

Other observations

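Several genes of the pathway could not be examined because the table lists them at 0 in every library. Wdr45, Atp6ap2 and Tfe3, the last encoding a relative of TFEB, lie in a run of 99 consecutive genes of one strand that are all listed at 0, Fundc1 in a run of 87, Vps11 in a run of 164, Lipa in a run of 146, and Tex264 and Slc17a5 in a run of 371. Calcoco2 was at 0 between neighbours with counts. These zeros were not read as silence.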
